A study of Drosophila melanogaster with 12 samples.

Results

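Whole Drosophila melanogaster flies kept at 30C, the restrictive temperature, were compared with flies kept at 25C, the permissive one, over 2 genotypes at once. The genotypes were S284Y mutants of dU2AF50, the large subunit of the splicing factor U2AF, and wild-type (WT) flies. RNA of pools of 5 males and 5 females was hybridised to expression arrays, with 3 arrays each of S284Y at 30C, WT at 30C, S284Y at 25C and WT at 25C. Members were chosen by title, the 6 arrays titled 30C and the 6 titled 25C, which are all 12 of the 12 arrays. Genotype entered the model as a term, so that the difference asked for is the average over mutant and wild type. That average can pass where the genotypes respond by unequal amounts. The labels do not give age, the life stage at which the temperature began, array batches, or whether the 3 arrays of a group came from separate cultures. P-values therefore measure the spread between these samples, which may be technical.

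The body temperature of fruit flies largely follows that of their surroundings. Temperature therefore affects their rate of development, their metabolic rate and the activity of their tissues. A short heat shock induces chaperone genes through the heat-shock factor Hsf, whereas long residence at a warm but tolerated temperature is known to change body size, pigmentation, egg production and the clock. In whole flies the RNA of flight muscle, gut, fat body, cuticle, eye and gonads is mixed. Fewer cells of a type and less RNA per cell cannot be told apart in such samples.

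Before the results, 3 features of the arrays matter. The 3 WT arrays titled 30C carry descriptions that read 25C, and that of array 1 also uses the permissive wording, so the titles were followed. On the log2 scale WT 30C array 1 correlated at 0.955 to 0.959 with the other WT 30C arrays and at 0.940 to 0.944 with the WT 25C arrays. S284Y 25C arrays 2 and 3 stood apart: their median correlations with the other arrays were 0.87 and 0.842, against 0.924 to 0.939 for the other 10. Counts are therefore also given without this pair, and for named genes its effect is summarised once. Median signals ran from 401.25 to 546.45 over the 12 arrays, and all were scaled to a trimmed mean near 1000.12.

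At 30C fewer probe sets were higher than lower. Of 13966 probe sets, 211 (1.51%) differed between temperatures with both genotypes pooled, at a limma adjusted p under 0.05. Of these, 70 (0.501%) were higher and 141 (1.01%) lower at 30C, and 27 higher and 65 lower ones passed 2-fold. Counted by genes, with the brightest probe set standing for each of 10844 genes, 63 (0.581%) were higher and 123 (1.13%) lower. At an unadjusted p under 0.05, 1212 of these genes were higher and 1240 lower. All 211 probe sets that passed had the same sign in S284Y and in WT, which the pooled test itself favours. Over all 10844 genes, 3321 were above 0 and 3683 below 0 in both genotypes. A stricter rule asked that, within each genotype, all 3 arrays of one temperature lay above all 3 of the other. Of the 211 that passed, 201 met it, 69 higher and 132 lower. These are 1.44%, 0.494% and 0.945% of the 13966 probe sets tested. Over all probe sets, 1083 (7.75%) had such separated arrays in both genotypes whether or not they passed the test, 555 (3.97%) higher and 528 (3.78%) lower.

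The number of calls depended on single arrays. With 1 array left out it was 68, 55 and 62 without S284Y 30C arrays 1, 2 and 3, and 81, 71 and 97 without WT 30C arrays 1, 2 and 3. It was 203, 158 and 966 without S284Y 25C arrays 1, 2 and 3, and 90, 77 and 95 without WT 25C arrays 1, 2 and 3. Without both S284Y 25C arrays that stood apart, 640 probe sets passed, 329 higher and 311 lower, and 197 of the 211 were among them. Moving WT 30C array 1 to the WT 25C group left 0 calls by limma, with 2376 probe sets at an unadjusted p under 0.05 against 2998 (21.5%) as titled. There were 55 probe sets, 14 higher and 41 lower, that passed in all 12 omissions. All of the other 156 were lost without S284Y 30C array 2. In what follows a gene "held" where its call survived each of the 12 omissions, and each call that did not hold is given with the number of arrays whose omission ended it. Of 74 named genes that passed, 30 held. Without S284Y 25C arrays 2 and 3, 72 of the 74 passed. The calls lost were those of CG1304 (-1.29, adjusted p = 0.0581) and LManIII (-1.78, adjusted p = 0.0510), and only CG7737 (0.91) and subdued (0.82) moved by more than 1.5 times. Quantile normalization ended 12 of the 74 calls, median centring 24, the fit without a variance trend 37 and the replicate block 40, none of them among the 30 that held. None of the 211 calls remained when WT 30C array 1 was moved to 25C, and none changed sign in any of the 25 alternatives.

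The largest fall was that of CG7214, and 3 cuticle protein genes also fell. CG7214, a gene with no name beyond its number here, had signals of 56.7, 57.4 and 41.3 in S284Y at 30C and 54.2, 84.6 and 49.4 in WT at 30C. At 25C its signals were 930, 652.1 and 749.8 in S284Y and 1295.6, 1644.5 and 2518.1 in WT. Every array at 30C thus lay far below every array at 25C, and it was the lowest log2 fold change among the genes tested, -4.03 ± 0.27 (SE, 16.3-fold lower, adjusted p = 1.1e-05). Its neighbour on chromosome arm 2L, Acp1, which encodes an adult cuticle protein, had 143.9 to 853.9 (median 482) at 30C and 995.7 to 3719.8 (median 2126) at 25C. The temperatures did not overlap, and Acp1 fell by 2.20 ± 0.37 on the log2 scale (4.61-fold, adjusted p = 0.0104). The chitin-binding cuticle protein gene Cpr49Ae had 293.3 to 453.5 at 30C and 952.2 to 1811.8 at 25C, a log2 fold change of -1.66 ± 0.19 (adjusted p = 0.00136). Its relative Cpr49Ab had 352.7 to 649.3 at 30C and 827 to 1283.2 at 25C, a log2 fold change of -1.05 ± 0.18 (adjusted p = 0.0139). All 4 calls held. Of the 93 cuticle protein genes measured, 0 were higher and 3 lower, and these were Acp1, Cpr49Ae and Cpr49Ab. The other 90 did not pass, and the list's median log2 fold change was -0.37, against -0.03 over all genes. Without S284Y 25C arrays 2 and 3, 7 cuticle genes passed, all lower.

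**Figure D1:**
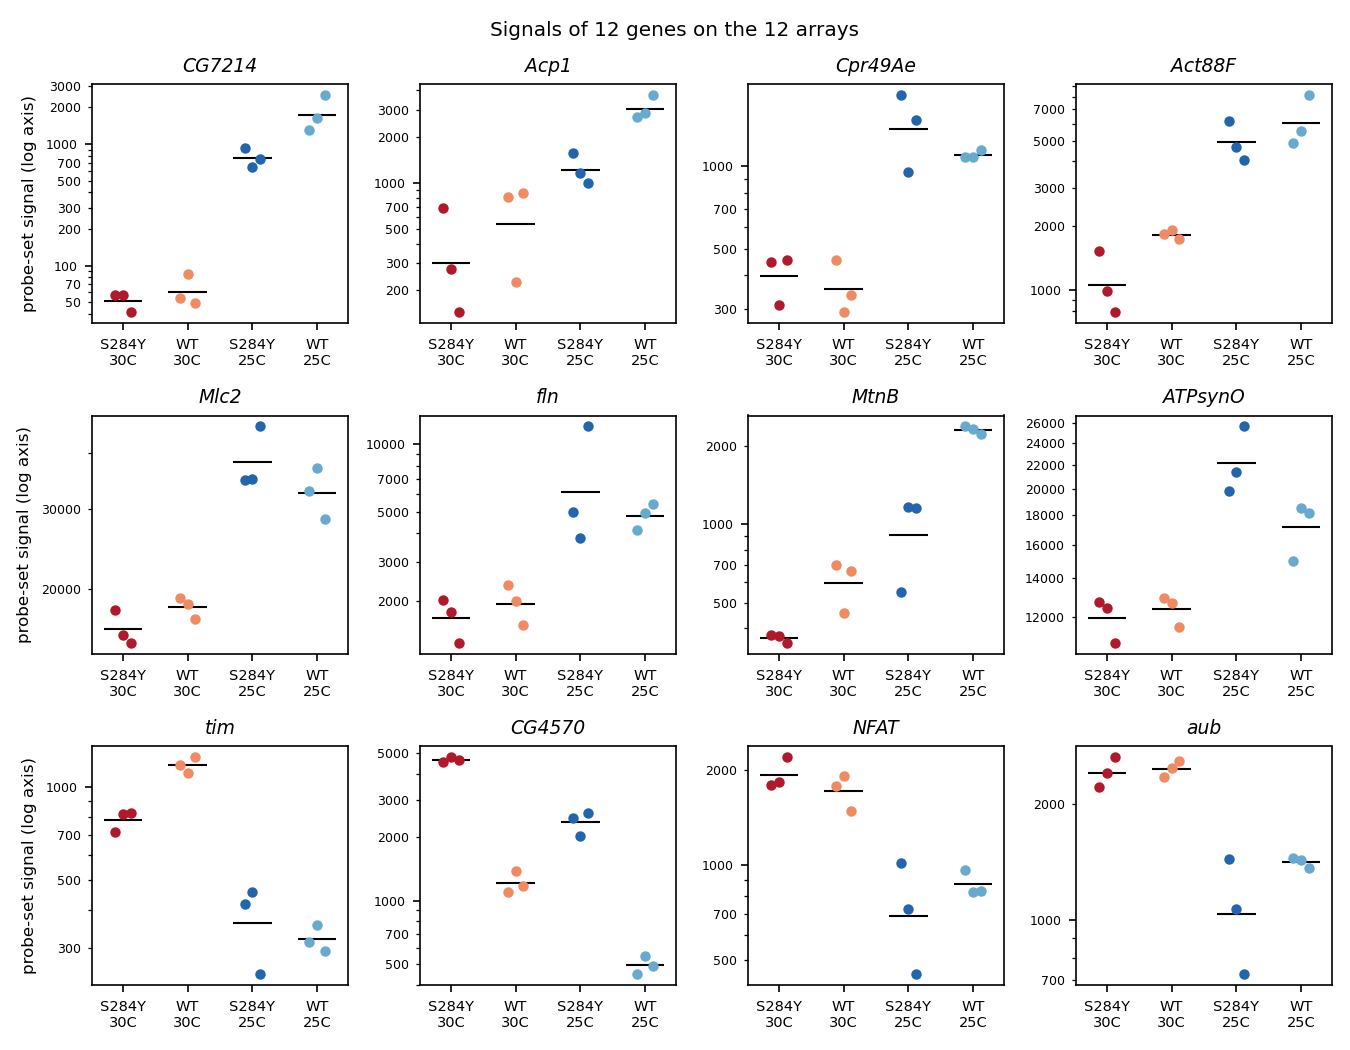
Signals of 12 genes on each array (points, log axis), in the order S284Y 30C, WT 30C, S284Y 25C, WT 25C, with the geometric mean of the 3 arrays as a bar. CG7214 at 30C stays at or below 84.6, whereas its lowest array at 25C reads 652.1; CG4570 differs by temperature within each genotype and by genotype within each temperature.

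At 30C 6 genes of muscle contraction fell. Act88F, the actin of the indirect flight muscle, had 1519.3, 997.3 and 791 in S284Y at 30C and 1823.8, 1906.7 and 1734.1 in WT at 30C. At 25C it had 6193.1, 4689.8 and 4060.6 in S284Y and 4872.5, 5522.9 and 8135.8 in WT. The lowest array at 25C exceeded the highest at 30C by more than the range within 30C, and Act88F fell by 1.95 ± 0.19 (3.87-fold, adjusted p = 0.000403). Flightin (fln), a thick filament protein of the same muscle, had a median of 1898 (1303.6 to 2351.1) at 30C and 4960 (3816 to 11938.1) at 25C. Its log2 fold change was -1.57 ± 0.25 (2.97-fold, adjusted p = 0.00737), and S284Y 25C array 3 gave the highest value. The myosin alkali light chain Mlc1 had a median of 3624 (2580.3 to 4064.6) at 30C and 8131 (6585.2 to 13586.2) at 25C, a log2 fold change of -1.30 ± 0.17 (adjusted p = 0.00362). For the regulatory light chain Mlc2 the medians were 17557 (15127.2 to 19045.1) at 30C and 34982 (28609.6 to 45872.9) at 25C, a log2 fold change of -1.04 ± 0.14 (adjusted p = 0.00362). Arginine kinase (Argk1), which buffers ATP in muscle, had a median of 11791 (11094.7 to 13792.4) at 30C and 19403 (16850.5 to 21891.5) at 25C, a log2 fold change of -0.70 ± 0.11 (adjusted p = 0.00975). Under quantile normalization Argk1 was at -0.43 (adjusted p = 0.0464). A second, dimmer Argk1 probe set did not pass (-0.10, adjusted p = 0.772). These 5 calls held. Tropomyosin 2 (Tm2) fell by 0.65 ± 0.14 (adjusted p = 0.0428), and this call was lost without any of 10 of the 12 arrays, with an adjusted p of up to 0.113.

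Over the 24 muscle contraction genes measured, 0 were higher, 6 were lower and 18 did not pass. All 24 log2 fold changes were below 0, against 5662 of 10844 over all genes. The list's median was -0.53, and it was -0.51 in S284Y and -0.52 in WT. The smallest differences were those of the calcium pump SERCA (-0.05, adjusted p = 0.921) and the giant protein projectin, encoded by bt (-0.13, adjusted p = 0.573). Between 5 and 14 members passed with 1 array left out, and 17 without S284Y 25C arrays 2 and 3. Among the muscle markers, 4 of 5 were measured, and their summed signal was 18764 to 24949 at 30C and 44128 to 71626 at 25C, with no overlap. Of these, Act88F, Mlc2 and fln are among the calls above, so the sum is not a separate result. The remaining marker, TpnC4, did not pass (-0.69, adjusted p = 0.208). The part played by the amount of muscle in these samples was not tested.

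Of 69 genes of oxidative phosphorylation, 0 were higher and 5 lower, and 64 did not pass. Their median log2 fold change was -0.45, and 60 of 69 were below 0, against 5662 of 10844 over all genes. All 5 that passed encode subunits of ATP synthase or complex I. ATPsynF had 5715.8 to 7458.6 at 30C and 8408.5 to 18442.1 at 25C, a log2 fold change of -0.73 ± 0.15 (adjusted p = 0.0347). ATPsynO, with 10817.5 to 12938.5 at 30C and 14988.9 to 25611.5 at 25C, fell by 0.68 ± 0.13 (adjusted p = 0.0267). ATPsynC had 7569.7 to 8621.1 at 30C and 8420.3 to 15967.2 at 25C, where 1 array of S284Y lay within the range at 30C, and fell by 0.68 ± 0.13 (adjusted p = 0.0241). Its second probe set did not pass (-0.71, adjusted p = 0.0679). ATPsyngamma fell by 0.60 ± 0.11 (adjusted p = 0.0205) and the complex I subunit ND-B14 by 0.58 ± 0.12 (adjusted p = 0.0373). Under quantile normalization the log2 fold changes of ATPsynO (-0.37, adjusted p = 0.0781), ATPsynC (-0.50, adjusted p = 0.0815) and ATPsyngamma (-0.31, adjusted p = 0.120) did not pass. Median centring ended the calls of ATPsynF, ATPsynO, ATPsyngamma and ND-B14. None of the 5 calls held: they were lost without 8, 7, 9, 5 and 10 of the 12 arrays. With 1 array left out, 0 to 28 members passed, and 19 passed without S284Y 25C arrays 2 and 3. The median was -0.67 in S284Y and -0.21 in WT, a difference that was not tested over the list.

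Genes of 2 mitochondrial carriers were picked once their values were known. The phosphate carrier gene Mpcp1 had 5412.3 to 7939.8 at 30C and 12689.6 to 26569.2 at 25C, and its log2 fold change of -1.24 ± 0.17 (2.35-fold, adjusted p = 0.00392) held. The ADP/ATP translocase gene sesB fell by 0.64 ± 0.14 (adjusted p = 0.0373), and this call was lost without any of 10 arrays and under quantile normalization (-0.26, adjusted p = 0.222). Of 27 genes of glycolysis and the TCA cycle, 0 were higher and 2 lower (median -0.32). Gapdh1, a glycolytic dehydrogenase, had 20284 to 24122 at 30C and 33057.6 to 65155.8 at 25C, a log2 fold change of -0.80 ± 0.17 (adjusted p = 0.0347), and Idh3b, an isocitrate dehydrogenase subunit, fell by 0.48 ± 0.11 (adjusted p = 0.0484). These calls were lost without 9 and 11 arrays, and Gapdh1 did not pass under quantile normalization (-0.47, adjusted p = 0.118), while 15 members passed without S284Y 25C arrays 2 and 3. Of 64 mitochondrial ribosomal protein genes 0 passed (3 higher and 2 lower at an unadjusted p under 0.05), with a median of -0.02 that ran from -0.08 to 0.05 with 1 array left out, and 4 were higher without S284Y 25C array 3 alone or arrays 2 and 3 together.

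**Figure D2:**
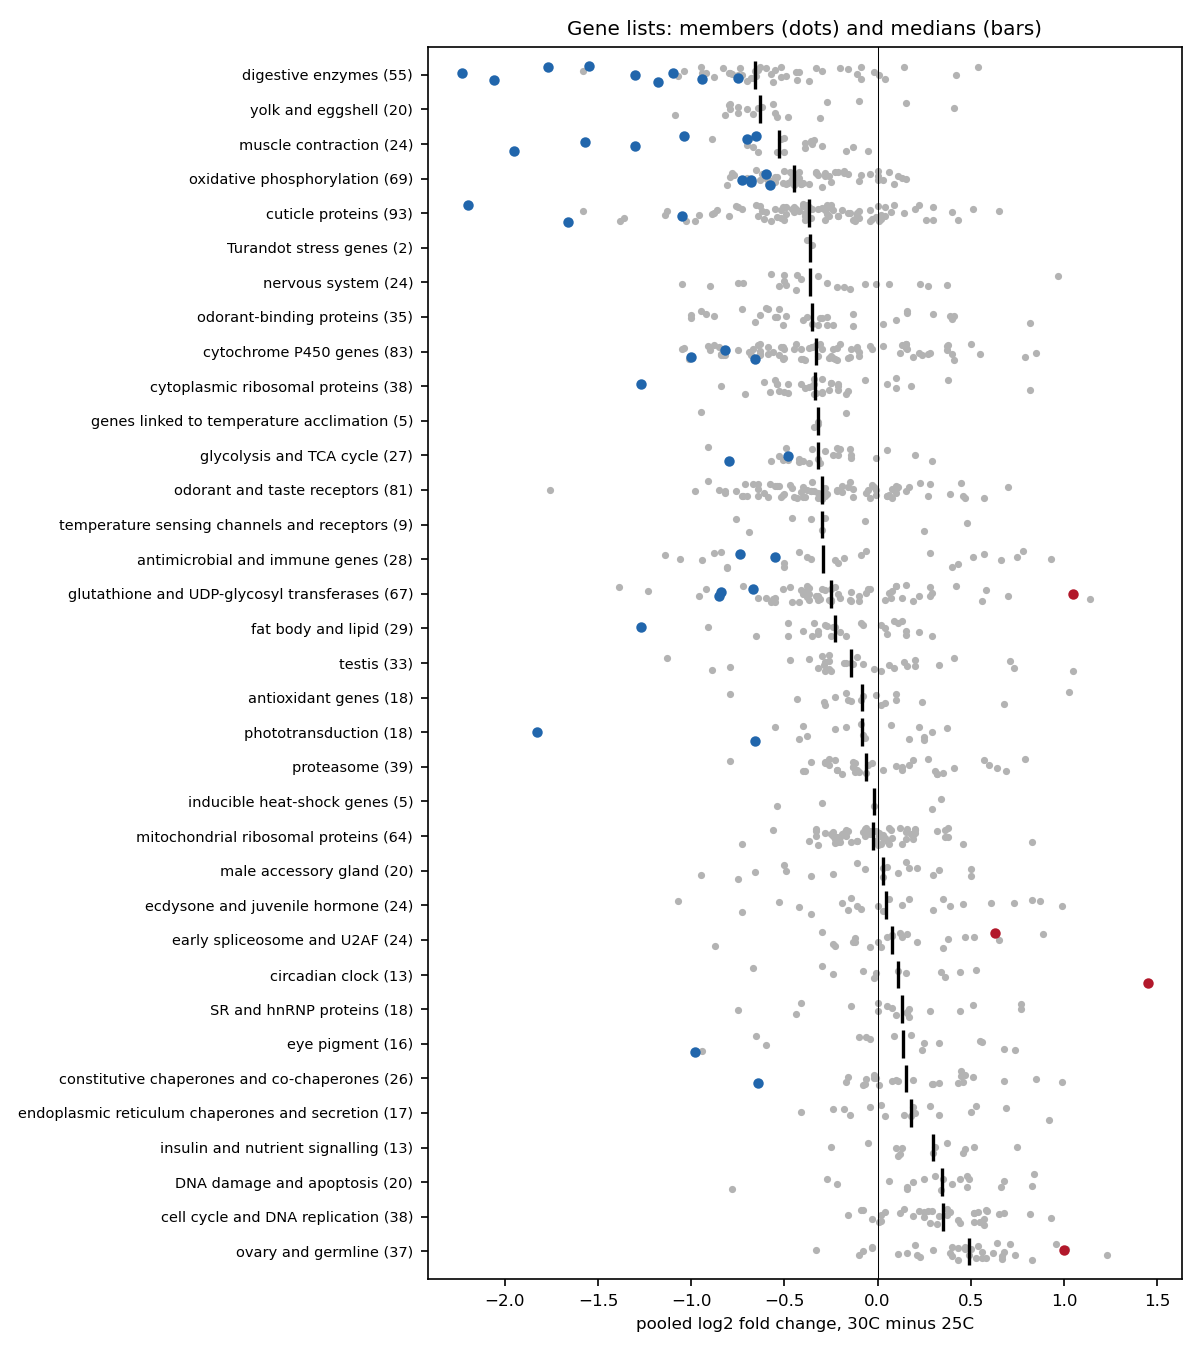
Pooled log2 fold changes, 30C minus 25C, of the measured members of each gene list (dots, number of members in parentheses) with the list median as a bar. Blue and red dots passed the test as lower and higher at 30C, grey dots did not; all 24 muscle dots lie below 0, and digestive enzymes hold 9 that passed as lower.

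Digestive enzymes held the most calls of any list by number, 0 higher and 9 lower of 55 measured, with a median of -0.66. The share lower was 16.4%, against 1.13% over all genes and 25.0% in the smaller muscle contraction list. The trypsin gene lambdaTry had 582.6 to 1225.5 (median 958) at 30C and 1594.5 to 2370.8 (median 2179) at 25C, without overlap, a log2 fold change of -1.18 ± 0.16 (adjusted p = 0.00362). The gut serine protease gene Jon25Bii had 7875.6 to 17466.8 (median 11989) at 30C and 25410.6 to 45245.4 (median 27672) at 25C, a log2 fold change of -1.30 ± 0.22 (adjusted p = 0.0104). Both calls held. The other 7 were lost without 8 to 11 arrays. They were Mal-A3, a maltase (-1.77 ± 0.35, adjusted p = 0.0330), the alpha-mannosidases LManIII (-2.06 ± 0.42), LManV (-1.55 ± 0.32) and LManVI (-2.23 ± 0.51), the lipase gene mag (-0.75 ± 0.16), the serine protease gene Ser6 (-1.10 ± 0.25) and LysC (-0.94 ± 0.21). Lysosomal mannosidases were counted here although their enzymes act in lysosomes, and LManIII, LManV and LManVI are close relatives, so that shared hybridisation was not tested. The LysC probe set is one that the array design marks as shared within a gene family. Its signal also differed by genotype: 28422.9 to 34418.7 in S284Y and 751.7 to 1244.1 in WT at 30C, and 40237.1 to 93676.8 in S284Y and 1772.1 to 2458.3 in WT at 25C. The S284Y arrays of LManVI overlapped between temperatures. A second, dimmer LManV probe set did not pass (-1.02, adjusted p = 0.163). Under quantile normalization LysC was at -0.65 (adjusted p = 0.102). LManIII was dim in S284Y at 30C, at 71, 8.3 and 18.5, and its call was also lost without S284Y 25C arrays 2 and 3. A further serine protease gene, CG1304, fell by 1.77 ± 0.41 (adjusted p = 0.0488), and this call was lost without any array other than S284Y 25C array 3. Without S284Y 25C arrays 2 and 3, 1 list member was higher and 8 were lower.

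Detoxification genes gave 6 calls on the lower side and 1 on the higher. Of 83 cytochrome P450 genes, 0 were higher and 3 (3.61%) lower, against 1.13% lower over all genes (median -0.33). Cyp6d5 had 1551.7 to 2971.8 at 30C and 2618.6 to 5654.5 at 25C, where only S284Y 25C array 3 lay within the range at 30C. It fell by 1.0 ± 0.16 (adjusted p = 0.00718). Cyp9f2 fell by 0.82 ± 0.14 (adjusted p = 0.0127), and its second probe set also passed (-0.83, adjusted p = 0.0171). Both calls held, whereas that of Cyp9b2 (-0.66 ± 0.14, adjusted p = 0.0373) was lost without any of 9 arrays and its other probe set did not pass (-0.26, adjusted p = 0.753). Of 67 glutathione and UDP-glycosyl transferase genes, 1 (1.49%) was higher and 3 (4.48%) lower. GstE3 had 932.2 to 1986.3 at 30C and 1682.3 to 2961.5 at 25C, and although the pooled ranges overlapped, the arrays of each genotype did not. Its log2 fold change of -0.85 ± 0.13 (adjusted p = 0.00567) held. GstE9 (-0.84 ± 0.18, adjusted p = 0.0369) and GstE12 (-0.67 ± 0.13, adjusted p = 0.0253) were lost without 10 and 4 arrays. GstD9 was higher, by 1.05 ± 0.23 (adjusted p = 0.0373), but its S284Y arrays overlapped between temperatures, and the call was lost without any of 9 arrays.

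Other calls on the lower side came from several tissues. The metallothionein gene MtnB, whose product binds metal ions, had 376.2, 370.5 and 349.1 in S284Y and 695, 455.5 and 659.9 in WT at 30C. At 25C it had 551.6, 1167.6 and 1157.8 in S284Y and 2383.6, 2326.3 and 2233.2 in WT. Within each genotype every array at 30C was below every array at 25C, and MtnB fell by 1.61 ± 0.21 (3.04-fold, adjusted p = 0.00362). Lsp2, a storage protein gene of the fat body, had 1439.9, 1062.1 and 1142.6 in S284Y and 4785.8, 6010.5 and 7498.7 in WT at 30C. At 25C its signals were 5433.5, 3347.1 and 2679.4 in S284Y and 11576.2, 12660.5 and 10586.8 in WT. It fell by 1.27 ± 0.19 (adjusted p = 0.00610), the only call among 29 fat body and lipid genes. Both calls held, as did those of the uncharacterised genes CG13315 (-1.95 ± 0.27, adjusted p = 0.00392), CG9682 (-1.99 ± 0.25, adjusted p = 0.00350) and CG14500 (-1.62 ± 0.23, adjusted p = 0.00392). CG1850 (-1.70 ± 0.36, adjusted p = 0.0369) was lost without any of 10 arrays.

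Further genes were picked once their values were known. Jhbp3, named as a juvenile hormone binding protein gene, had 1365.5 to 1967 at 30C and 2413.3 to 4643 at 25C. Its log2 fold change of -1.12 ± 0.12 had an adjusted p of 0.000602 and passed in the contrast of each genotype in a model of 4 group means, -0.94 in S284Y (adjusted p = 0.0130) and -1.31 in WT (adjusted p = 0.00704). The neuropeptide-like precursor gene Nplp3 fell by 1.31 ± 0.19 (adjusted p = 0.00392). Sodh1, a sorbitol dehydrogenase gene, fell by 1.46 ± 0.20 (adjusted p = 0.00392), and l(2)34Fc by 1.10 ± 0.16 (adjusted p = 0.00594). These 4 calls held. The fat body gene fit (-1.15 ± 0.25, adjusted p = 0.0395) and yellow-e (-1.40 ± 0.32, adjusted p = 0.0458) were lost without 8 and 10 arrays, and yellow-e was dim at 30C, at 24.3 to 49.4.

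Eye, immune and ribosomal lists held 1 or 2 calls each, all lower. In the phototransduction list, 2 of 18 passed: the arrestin gene Arr1 (-0.66 ± 0.13, adjusted p = 0.0280) and retinin (-1.83 ± 0.37, adjusted p = 0.0338), which encodes a protein of the corneal lens rather than a transduction component. Retinin had 269.4 to 1427.1 at 30C and 491.5 to 2883 at 25C, where S284Y 25C array 2 was far below the others. Arr2, the other arrestin measured, did not pass (0.25, adjusted p = 0.262). Of 16 eye pigment genes 1 passed, Pu, which encodes the enzyme that starts pteridine synthesis (-0.98 ± 0.22, adjusted p = 0.0471). PGRP-LB, an enzyme that degrades bacterial peptidoglycan, fell by 0.74 ± 0.17 (adjusted p = 0.0471) and the serpin gene nec by 0.55 ± 0.11 (adjusted p = 0.0338), the 2 calls among 28 immune genes. RpL17 was the call among 38 cytoplasmic ribosomal protein genes (-1.27 ± 0.29, adjusted p = 0.0488). The list's median was -0.33 as reported and 0.05 under quantile normalization. These 6 calls were lost without 7 to 11 arrays.

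On the higher side no list held more than 1 call, and that of the clock genes was timeless. Timeless (tim), whose protein pairs with PER to repress its own transcription, had 714.6, 817.2 and 820.3 in S284Y and 1174.9, 1111.8 and 1246.5 in WT at 30C. At 25C it had 415.8, 457.6 and 247.1 in S284Y and 314.7, 355.8 and 294.1 in WT. The temperatures did not overlap, and tim rose by 1.45 ± 0.20 (2.74-fold, adjusted p = 0.00392). It also passed in the contrast of each genotype in a model of 4 group means (1.08 in S284Y, adjusted p = 0.0408, and 1.82 in WT, adjusted p = 0.0282). The call held. Both other tim probe sets did not pass (-0.08, adjusted p = 0.933, at a mean signal of 18 at 30C and 20.8 at 25C, and 0.29, adjusted p = 0.695, at 324 and 320). None of the other 12 clock genes passed. The nearest was the photoreceptor cryptochrome, cry, at -0.67 (adjusted p = 0.0688), while per was at -0.30 (adjusted p = 0.627) and Clk at 0.36 (adjusted p = 0.652). The labels do not say at what hour flies were collected.

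The rises that held came from 14 probe sets, those of tim, NFAT, Asx, CG7800, CG4570, the germline gene aub and 8 others. NFAT, the fly member of a family of calcium-responsive transcription factors, had 1481.6 to 2194.8 (median 1812) at 30C and 451.6 to 1013.1 (median 828) at 25C. It rose by 1.21 ± 0.19 (adjusted p = 0.00716). Asx, which acts with the Polycomb group of chromatin repressors, had 874.1 to 1264.5 at 30C and 162.7 to 551.6 at 25C, and rose by 1.34 ± 0.23 (adjusted p = 0.0123). CG7800 had 513.4 to 816.8 at 30C and 187.9 to 318.7 at 25C, a rise of 1.5 ± 0.21 (adjusted p = 0.00392). CG4570 had 4556.6, 4776.2 and 4636.2 in S284Y and 1098.7, 1385.8 and 1172.4 in WT at 30C. At 25C it had 2472, 2035.3 and 2599.1 in S284Y and 449.5, 550.7 and 491 in WT. Its groups were separate by genotype and by temperature, and the rise with temperature was 1.12 ± 0.12 (adjusted p = 0.000888), 0.98 in S284Y and 1.27 in WT.

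The other 8 rises that held were picked once their values were known. The largest rise of any probe set that passed was that of a dim probe set of mask, with 217.7 to 663.1 at 30C and 26 to 101.8 at 25C, which was 2.38 ± 0.34 on the log2 scale (adjusted p = 0.00392). The other 3 mask probe sets did not pass, at 0.82 for the brightest (adjusted p = 0.452), 0.91 (adjusted p = 0.256) and -0.29 (adjusted p = 0.371). A dim probe set of ZAP3 rose by 1.82 ± 0.28 (adjusted p = 0.00659), with 249.9 to 418.4 at 30C and 50.6 to 174.8 at 25C, whereas its brightest (0.67, adjusted p = 0.0598) and another (0.44, adjusted p = 0.466) did not pass. For kipf, 1 probe set rose by 1.10 ± 0.16 (adjusted p = 0.00594) and the brightest did not pass (0.46, adjusted p = 0.182). The gene ash2, which encodes a component of histone methyltransferase complexes, rose by 1.03 ± 0.17 (adjusted p = 0.0106), and rasp, an acyltransferase gene needed for Hedgehog signalling, by 0.88 ± 0.15 (adjusted p = 0.0128). Ddx56, a DEAD-box helicase gene, rose by 0.86 ± 0.12 (adjusted p = 0.00392), CG8097 by 0.97 ± 0.16 (adjusted p = 0.0104) and CG1416 by 0.59 ± 0.10 (adjusted p = 0.0104). For these 5 the arrays at 30C lay above all arrays at 25C.

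Among genes represented by their brightest probe set, 10 of the 15 rises named by size did not hold, the largest among them. Those of CG7800, tim, Asx, NFAT and CG4570 held. CG10462 rose by 2.01 ± 0.41 (adjusted p = 0.0347), and this call survived only without any 1 of the S284Y 25C arrays or WT 25C array 3. Its signal was 924.1 to 1186.3 at 30C, against 38.7 in S284Y 25C array 3 and 263.1 to 447.1 in the other 5 arrays at 25C. Cul6, a cullin family gene, rose by 1.95 ± 0.39 (adjusted p = 0.0330), with 395.8 to 699.2 at 30C and 31.4 to 258.7 at 25C. CG4496 (1.74 ± 0.36), CG11695 (1.49 ± 0.29), CG7737 (1.38 ± 0.28), sstn (1.32 ± 0.28), the anoctamin gene subdued (1.32 ± 0.28), vito (1.31 ± 0.28), the claudin gene sinu (1.27 ± 0.27) and pie (1.13 ± 0.23) had adjusted p-values between 0.0298 and 0.0373. Each of these 10 calls was lost without 6 to 11 arrays, S284Y 30C array 2 among them. For CG7737 a second probe set did not pass (0.38, adjusted p = 0.391).

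In the ovary and germline list 1 of 37 genes was higher and 0 were lower, with a median of 0.49. Of the 37 differences 32 were above 0, against 5182 of 10844 over all genes. The gene that passed was aubergine (aub), an Argonaute protein of the piRNA pathway, which silences transposons. It had 2212.3, 2406.1 and 2645.9 in S284Y and 2348.5, 2487.6 and 2595.1 in WT at 30C, and 1443.2, 1071.7 and 724.7 in S284Y and 1451.3, 1436.1 and 1368.5 in WT at 25C. No array at 25C reached those at 30C, and the rise of 1.0 ± 0.16 on the log2 scale (2.0-fold, adjusted p = 0.00792) held. The piRNA genes krimp (1.23, adjusted p = 0.0997), armi (0.96, adjusted p = 0.143), vret (0.83, adjusted p = 0.0598) and piwi (0.53, adjusted p = 0.159) did not pass. Localised oocyte transcripts did not pass either, with osk at 0.67 (adjusted p = 0.121) and bcd at 0.68 (adjusted p = 0.112). The list's median was 0.75 in S284Y and 0.15 in WT, and 0.18 in the pooled fit without S284Y 25C arrays 2 and 3, where 5 genes passed. Ovo, a transcription factor of the female germline, and mtrm, an inhibitor of Polo kinase in the oocyte, were likewise picked once their values were known. Ovo rose by 0.82 ± 0.16 (adjusted p = 0.0338) and mtrm by 0.53 ± 0.11 (adjusted p = 0.0370), calls lost without 7 and 10 arrays, and a dimmer ovo probe set was at -0.10 (adjusted p = 0.925).

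Of 20 yolk and eggshell genes, expressed by fat body and follicle cells, 0 passed in either direction (0 higher and 13 lower unadjusted), and the median was -0.63. Over all 10844 genes, 1212 were higher and 1240 lower unadjusted, and 5182 were above 0. Of the yolk protein genes, Yp1 was at -0.79 (adjusted p = 0.322), Yp2 at -0.75 (adjusted p = 0.217) and Yp3 at -1.09 (adjusted p = 0.105). The summed signal of 8 ovary and eggshell markers was 118786 to 261574 at 30C and 195790 to 844415 at 25C, with S284Y 25C array 2 the highest array for yolk and eggshell genes. None of 38 cell cycle and DNA replication genes passed (9 higher and 0 lower unadjusted), although 34 were above 0 (median 0.35, and 0.70 in S284Y against 0.03 in WT). Of 33 testis genes 0 passed (2 higher and 3 lower unadjusted, median -0.14), and of 20 male accessory gland genes 0 passed (0 higher and 4 lower unadjusted, median 0.03).

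**Figure D3:**
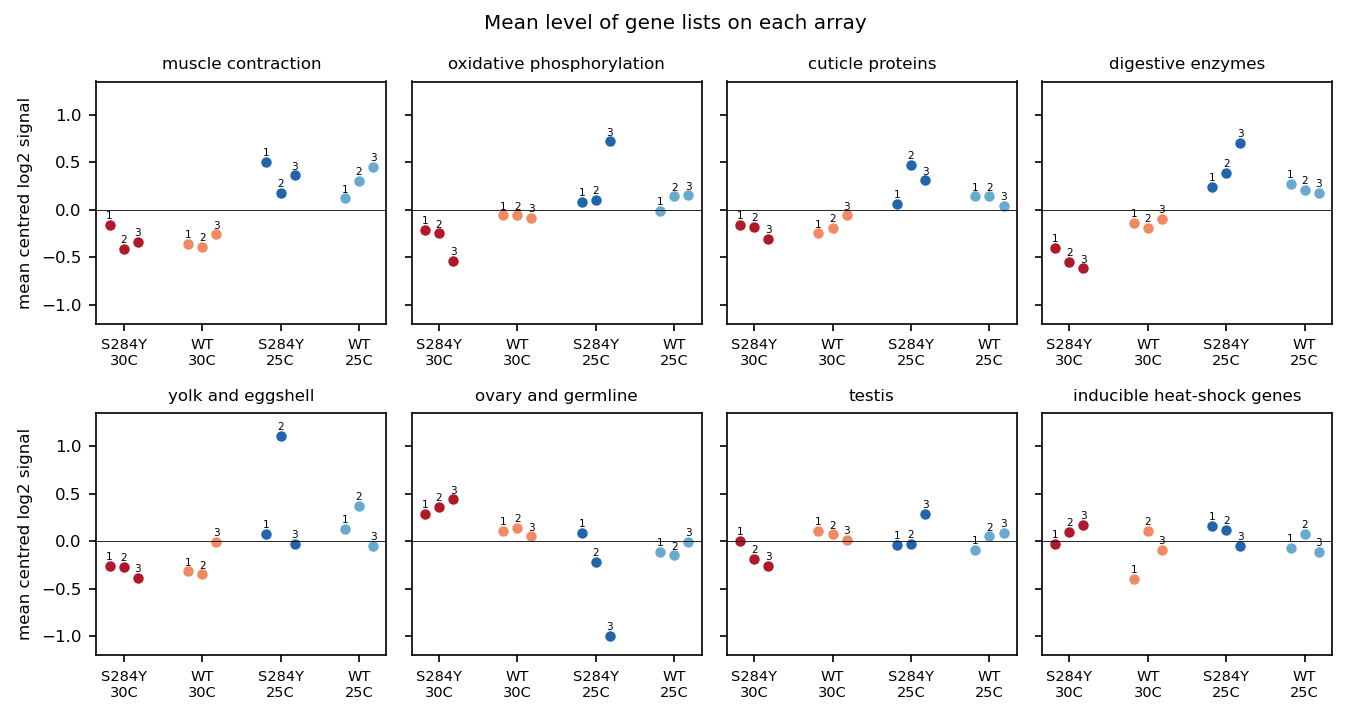
Mean over the genes of 8 lists of each gene's log2 signal minus its mean over all arrays, with 1 point for each array, numbered by replicate. The muscle, oxidative phosphorylation, cuticle and digestive lists are each lower on all 6 arrays at 30C than on all 6 at 25C. S284Y 25C array 3 lies far below the others for ovary and germline genes and array 2 far above for yolk and eggshell genes.

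None of the inducible heat-shock genes in the list passed in either direction. The list had 5 genes with a probe set that names a single gene (1 higher and 0 lower unadjusted), and a median of -0.02 that turned positive under quantile normalization (0.06). The small heat-shock protein genes Hsp26 and Hsp27 were at -0.30 ± 0.15 (adjusted p = 0.273) and -0.02 ± 0.13 (adjusted p = 0.946). Hsp68, an inducible Hsp70 relative, was at -0.54 ± 0.35 (adjusted p = 0.368), the co-chaperone DnaJ-1 at 0.34 ± 0.11 (adjusted p = 0.121) and the co-chaperone stv at 0.29 ± 0.20 (adjusted p = 0.397). Hsf, the heat-shock transcription factor, had 2056.7 to 2346.5 at 30C and 1140.4 to 1929.3 at 25C. These ranges did not overlap, and its difference of 0.43 ± 0.14 did not pass (adjusted p = 0.115). In the model of 4 group means its difference was 0.71 in S284Y (adjusted p = 0.0428) and 0.16 in WT (adjusted p = 0.960), with an interaction at an adjusted p of 0.607, and without S284Y 25C arrays 2 and 3 the pooled difference was 0.22 (adjusted p = 0.109). Of 26 constitutive chaperone genes 1 passed, Fkbp59, a peptidyl-prolyl isomerase (-0.64 ± 0.14, adjusted p = 0.0373), lost without any of 9 arrays, and 0 were higher. At an unadjusted p under 0.05, however, 9 of the 26 were higher and 1 lower, against 1212 and 1240 of 10844 over all genes. Of the 26 differences 17 were above 0 (median 0.15), against 5182 over all genes. The mean centred log2 signal of the list was 0.09 to 0.13 on the arrays at 30C and -0.34 to -0.00 on those at 25C, without overlap. Without S284Y 25C arrays 2 and 3, 3 of these genes passed as higher and 1 as lower. The Hsp70 copies and Hsp83 are not in these lists, since no probe set named 1 of them alone. Probe sets with several symbols were tested with all others but are not described by gene here, so the lists do not cover these genes. Among other lists that could bear on temperature, none of 9 temperature-sensing channel and receptor genes, 5 acclimation genes, 18 antioxidant genes or 2 Turandot stress genes passed. At an unadjusted p under 0.05 the numbers were 2, 2, 4 and 0, against 2452 of 10844 over all genes.

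Neither U2AF subunit passed. U2af50, the mutated gene, had 3976.6 to 5548.7 at 30C and 3722.6 to 6197.5 at 25C (0.13 ± 0.13, adjusted p = 0.579), and its partner U2af38 had 2158.8 to 3365.1 at 30C and 2289.7 to 3773.1 at 25C (-0.12 ± 0.15, adjusted p = 0.644). The array signal does not report the S284Y substitution, so it is no check of genotype. The U4-U6-60K gene, encoding a protein of the U4/U6 small nuclear ribonucleoprotein, was the 1 call among 24 early spliceosome and U2AF genes (0.63 ± 0.13, adjusted p = 0.0358), and it was lost without any of 8 arrays.

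The response was compared between genotypes with a model of 4 group means. No probe set had an interaction of genotype and temperature at an adjusted p under 0.05, by limma. There were 1127 of 13966 at an unadjusted p under 0.05, 31 of them among the 211 pooled calls. Without S284Y 25C array 1, 84 passed at an adjusted p under 0.05. Within genotypes, 559 (4.0%) probe sets passed for temperature in S284Y and 13 (0.0931%) in WT. Of the 211 pooled calls, 153 also passed in S284Y and 9 in WT, and 167 were larger in S284Y against 44 larger in WT. Which genotype had more calls depended on how the spread was estimated: fitted to its own 6 arrays, S284Y gave 0 calls (1978 unadjusted) and WT gave 178. Without S284Y 25C arrays 2 and 3 the model of group means gave 183 in S284Y and 200 in WT. With all arrays, CG7214, Act88F, MtnB, tim, CG4570 and Jhbp3 were among the genes that passed in both genotype contrasts of that model, whose spread is shared over all 12 arrays. Their calls, like all others, were absent in the fit to S284Y arrays only.

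**Figure D4:**
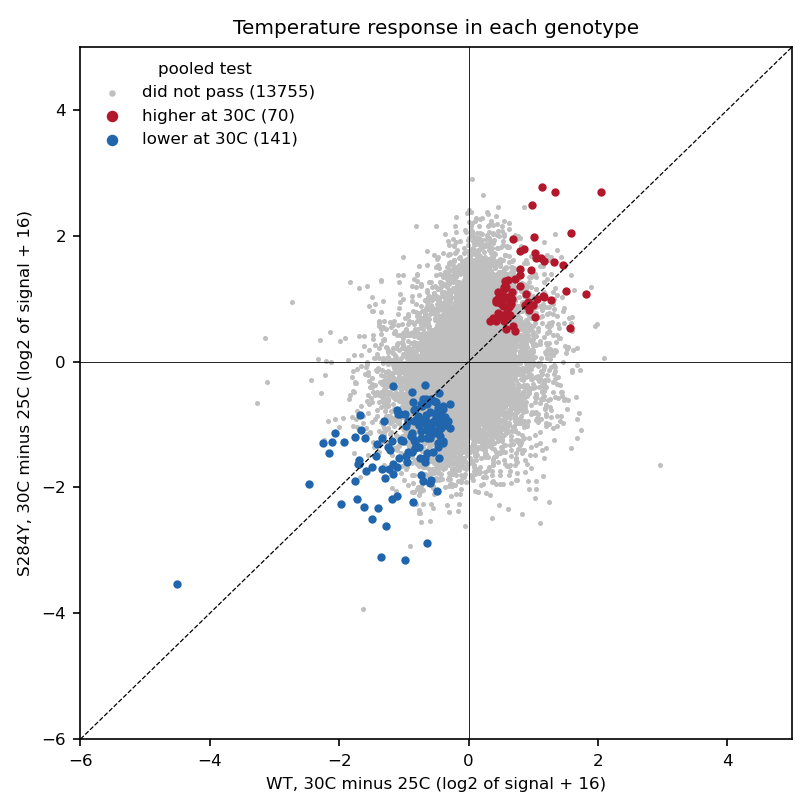
Log2 fold change, 30C minus 25C, of 13966 probe sets in S284Y (vertical) against WT (horizontal), with equal responses on the dashed line. The 70 probe sets that passed as higher in the pooled test are red and the 141 that passed as lower blue. All of them lie in quadrants where both genotypes share the sign, which the pooled test itself favours.

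Probe-set brightness and gene length moved with the result. In the dimmest 10% of probe sets the median log2 fold change was -0.27, with 0 higher and 3 lower calls. In the 10% next to the brightest it was 0.13, with 18 higher and 24 lower, and in the brightest 10% it was -0.05, with 9 higher and 44 lower. By the length of the gene in the RefSeq annotation, the shortest 25% (2700 genes, up to 1362 bases) had 6 higher and 43 lower calls and a median of -0.20, which was -0.32 in S284Y and -0.05 in WT. The longest 25% had 17 higher and 18 lower calls and a median of 0.03. Without S284Y 25C arrays 2 and 3 the shortest 25% had 35 higher and 89 lower calls (median -0.07) and the longest 72 and 55. The part of length, brightness or RNA quality in the gene lists above was not tested. Over the chromosome arms, calls on the lower side were 1.01% of genes on 2L, 1.33% on 2R, 0.949% on 3L, 1.36% on 3R and 0.851% on X.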

How the data were processed

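RNA of whole flies was measured on 12 one-colour arrays. The authors deposited 1 linear intensity (signal) per probe set and array; its software was not given in the sources used here. The arrays share 2% trimmed means of 1000.12 to 1000.18, so no normalization was added, and no detection calls were used. After 44 controls were left out, log2(signal + 16) of 13966 probe sets was fitted with limma 3.58.1 in R 4.3.3 (temperature and genotype as terms, eBayes with trend), with Benjamini-Hochberg adjustment over all probe sets. The added 16 shrinks the fold changes of dim probe sets. Probe sets with 1 symbol (12443) were named by Entrez number from RefSeq names; 327 had several and 1196 none. Errors are limma's moderated standard errors of the temperature difference in the fit of all 12 arrays, 6 per temperature, whose number limits precision.

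A two-sided exact permutation of temperature within genotype (400 arrangements) gave p = 0.315 for U2af50, 0.410 for U2af38 and 0.00500, the smallest possible, for Hsf, genes named whatever their values; for genes chosen as separated calls the choice fixes that p, so it is not used. Named were the 15 highest and 15 lowest separated calls above the 40th percentile of brightness (log2 8.30), U2af50, U2af38, Hsf and members of lists that passed; others are marked. Of 35 gene lists, each list is described by counts and medians without a set test. The comparison and the lists were chosen with earlier results of these data known. The fit was tested on simulated data. Alternatives were other offsets, normalizations, filters, variance models, a replicate block and omitted arrays.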

Additional observations from a re-analysis of the deposited data

Results flagged for a closer look

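Within the 6 arrays of a temperature, 12 of 154 gene values had an array set apart from its nearest neighbour by a large share of the group's range. Gaps were taken on the log2 scale. For 6 draws from 1 normal group, chance flags about 1 in 20. That rate does not apply here, since the 6 arrays mix 2 genotypes and the genes share arrays and were mostly chosen by their result. S284Y 25C array 3 was the array in 8 of the 12. It was the highest at 25C for Ser6 (gap 0.862 of the range), Jon25Bii (0.821), CG1304 (0.794), Gapdh1 (0.724), fln (0.697) and CG13315 (0.630), and the lowest for CG10462 (0.763) and Cyp6d5 (0.661). S284Y 25C array 2 was the lowest at 25C for retinin (0.833), with a signal of 491.5 against 2150.1 in the nearest array. At 30C, WT 30C array 1, whose description carries the permissive wording, was the highest for ATPsynC (0.776) and the lowest for subdued (0.672), and S284Y 30C array 3 was the lowest for Mlc1 (0.716).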

How the results depend on the processing

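The pooled count of 211 and the common count of 201 were within 1.5 times of these under offsets of 1 and 64 and quantile normalization, and no call of the main comparison changed sign in any alternative. Pooled and common counts were 136 and 132 with median centring (61 higher and 75 lower pooled calls, 55.1% lower against 66.8%), 356 and 315 without the dimmest 40%, 103 and 97 without the variance trend, 895 and 569 with array quality weights, 640 and 617 without S284Y 25C arrays 2 and 3, and 0 and 0 once WT 30C array 1 counted as 25C. The pooled count was 354 in the fit of 4 group means and 0 on S284Y arrays alone. With 1 array left out, the pooled count ranged from 55 to 966, the common count from 55 to 806, the S284Y count from 17 to 2398 and the WT count from 1 to 99. The interaction count ranged from 0 to 84, the highest without S284Y 25C array 1. The S284Y count (559) was 128 without the variance trend, 75 with array weights, 183 without S284Y 25C arrays 2 and 3 and 222 with WT 30C array 1 moved. The WT count (13) was 7 without the dimmest 40%, 8 without the trend, 277 with array weights, 200 without S284Y 25C arrays 2 and 3 and 0 with that array moved. With the replicate number as a block, counts were 67 pooled, 66 common, 164 in S284Y and 1 in WT. Whether the numbers pair the arrays is not known. Deviations of same-numbered arrays correlated between -0.13 and 0.06, which cannot decide it with 3 arrays per group. The cause of these shifts was not tested.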
